A study of Saccharomyces cerevisiae with 6 samples.

Results

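Cytosolic Hsp70 and Hsp90 chaperones are followed here through 10 budding yeast genes, chosen by name from the 6679 open reading frames (ORFs) of the deposited table. They are the 4 cytosolic Hsp70 genes SSA1, SSA2, SSA3 and SSA4, the Hsp90 genes HSP82 and HSC82, the co-chaperones STI1 and YDJ1, the disaggregase HSP104 and the transcription factor HSF1. All 10 were matched by the symbol in the file, and all 10 passed the filter of a mean value of at least 5 that left 6025 ORFs for testing.

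Poly(A)-selected mRNA was sequenced from the SK1 strain of Saccharomyces cerevisiae during meiosis, in a study of the unfolded protein response (UPR) in gametogenesis. Cells were moved into sporulation medium, and after 5 h they received either ethanol, the vehicle, or an inducer labelled bEST, which the series ties to expression of spliced HAC1, the mRNA of the transcription factor that drives the UPR. Samples of either treatment were taken 1.0, 1.5 and 2.0 h later, at 6, 6.5 and 7 h of sporulation, and a single library stands for each combination. All 6 libraries carry the genotype WT in the labels, the construct that responds to the inducer is not named there, and nothing says whether the libraries came from separate cultures. A control with the inducer alone was not analysed here, so what the inducer does and what HAC1 does cannot be told apart.

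Hsp70 proteins bind short hydrophobic stretches of unfolded chains and release them in a cycle driven by ATP. J-domain proteins such as Ydj1 deliver clients and stimulate the ATPase, and Sti1 passes clients from Hsp70 on to Hsp90, which completes the folding of kinases, receptors and other signalling proteins. Hsp104 works with Hsp70 to pull chains out of aggregates. In the cytosol these genes are driven largely by Hsf1, which binds heat shock elements, whereas the lumen of the endoplasmic reticulum (ER) has its own Hsp70, Kar2, and its own regulator, Hac1.

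The HAC1 values, 98.4 to 128 in the vehicle libraries and 28926 to 53257 in the inducer libraries, matched the labels. Values are RPKM-type values (reads scaled to gene length and library size) as deposited, and the depth recovered from them ran from 5.9 megareads in vehicle at 6.5 h, the shallowest library, to 21.1 megareads in inducer at 6.5 h. The member with the fewest reads was SSA2, with 234 in its lowest library, where counting alone gives a coefficient of variation of 6.54%. The 6 meiotic markers (IME1, IME2, ZIP1, NDT80, CLB3 and SPS1) were present in every library, with a summed level of 20445 to 24348 in vehicle and 16743 to 19890 with inducer. All 6 had a negative change, and IME1 was called lower (-1.04, limma adjusted p = 0.0144). The 6 haploid markers summed to 780 to 909 in vehicle and 1019 to 2038 with inducer, with none at 0. Among them MFA1 (1.19, limma adjusted p = 0.0296) and BAR1 (1.28, adjusted p = 0.0167) were called higher, and 3 of the 6 had a negative change. MFA1 alone was 397 to 510 in vehicle and 599 to 1573 with inducer. The part of these markers and of the meiotic stage in the results was not tested. Changes are on the log2(value + 1) scale with the standard error (SE) of the limma coefficient over 3 time-matched pairs, and adjusted p-values are limma's with Benjamini-Hochberg correction over the 6025 ORFs. With 1 library per treatment and time, the 3 times stand in for replicates. The SE and p-values between treatments therefore reflect how the difference between treatments varied over the 3 times, and not a spread of replicates. In both, limma also draws the variance of each ORF toward a trend over all tested ORFs, so neither is the ORF's own spread alone. A difference that changes with time and technical spread cannot be told apart there. In bulk RNA fewer cells with a transcript and less of it per cell cannot be told apart either.

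Copies of these genes are close enough to share reads. SSA1 and SSA2 were 96.8% identical over their coding sequences, with a longest shared run of 383 bases. Of all 50-base windows of SSA1, 57.9% also occurred elsewhere in the reference genome, searched on both strands, each of them in SSA2. HSP82 and HSC82 were 92.4% identical and shared 6.39% of the windows of HSP82. SSA3 and SSA4 were 76.1 to 78.2% identical to the other Hsp70 genes and to each other, with 0 shared windows, and the remaining members had 0 shared windows as well. The sequencing reads were 50 bases long. The sources used here do not say how reads that match 2 genes were assigned, so the split between SSA1 and SSA2 is uncertain. Were such reads dropped, both genes would also be understated beside other genes, which bears on ranks, shares and ratios. The stretches below are shown because they display how far a read can distinguish the copies. They are coding positions 910 to 999 of the Hsp70 genes, with capitals at each base that differs from SSA1 (0, 1, 21 and 21 bases), read from the RefSeq S288C genome, build R64; SK1 alleles may differ.
SSA1, chrI:140433-140522, minus strand: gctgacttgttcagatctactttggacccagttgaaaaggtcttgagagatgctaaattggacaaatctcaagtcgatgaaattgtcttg
SSA2, chrXII:96487-96576, minus strand: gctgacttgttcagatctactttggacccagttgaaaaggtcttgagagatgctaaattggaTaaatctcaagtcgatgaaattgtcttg
SSA3, chrII:85447-85536, minus strand: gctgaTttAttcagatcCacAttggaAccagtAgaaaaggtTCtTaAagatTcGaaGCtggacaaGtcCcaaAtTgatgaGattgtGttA
SSA4, chrV:365501-365590, plus strand: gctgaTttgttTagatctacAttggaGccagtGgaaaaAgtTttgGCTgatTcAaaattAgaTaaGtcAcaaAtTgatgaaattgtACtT
The next pair covers coding positions 40 to 129 of the Hsp90 genes, with capitals at the 7 bases where HSC82 differs from HSP82.
HSP82, chrXVI:98497-98586, minus strand: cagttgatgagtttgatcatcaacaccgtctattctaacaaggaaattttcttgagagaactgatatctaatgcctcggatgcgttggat
HSC82, chrXIII:632394-632483, plus strand: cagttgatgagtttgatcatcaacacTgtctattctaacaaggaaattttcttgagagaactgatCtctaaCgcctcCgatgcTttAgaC

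SSA1 and SSA2, the cytosolic Hsp70 genes known as constitutive during growth, were lower with the inducer at every time. SSA1 measured 1242, 1661 and 951 in vehicle at 6, 6.5 and 7 h and 774, 634 and 551 with inducer at the same times. The groups did not overlap, and SSA1 fell by 0.95 ± 0.18 (SE, 3 pairs; limma adjusted p = 0.0134), a level 1.93-fold higher in vehicle. SSA2 stood far lower, at 55.2, 83.6 and 45.6 in vehicle and 38.8, 33.7 and 37.5 with inducer. Its groups did not overlap either, but its change of -0.69 ± 0.21 missed the threshold (limma adjusted p = 0.0587). The sum of SSA1 and SSA2, which does not depend on how shared reads are split between them if they were kept, fell by 0.94 (limma adjusted p = 0.0144). SSA1 made up 95.2 to 95.7% of the pair in vehicle and 93.6 to 95.2% with inducer, a mean difference of -0.86 percentage points that was negative in each pair (exact permutation test, two-sided, 3 against 3, p = 0.2; adjusted over 4 ratios and shares, 0.4).

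SSA3 and SSA4, the Hsp70 genes known as stress-inducible, were also lower with the inducer at every matched time, but their groups overlapped. SSA3 was 1084, 2233 and 2315 in vehicle and 974, 1269 and 1402 with inducer, so that vehicle at 6 h lay inside the inducer range. Its change between treatments was -0.56 ± 0.17 (limma adjusted p = 0.0627). Over time SSA3 was the member with the largest positive slope, 0.81 ± 0.23 per hour over both treatments (limma adjusted p = 0.115), which did not pass the threshold. SSA4 was 356, 386 and 305 in vehicle and 307, 292 and 273 with inducer, and changed by -0.26 ± 0.13 (limma adjusted p = 0.199). SSA4 in vehicle at 7 h lay just below SSA4 with inducer at 6 h, so these groups overlapped. Summed, the 4 Hsp70 genes gave 2737, 4364 and 3617 in vehicle and 2094, 2229 and 2264 with inducer, groups that did not overlap. The share of SSA3 and SSA4 in that sum was 52.6, 60.03 and 72.4% in vehicle and 61.2, 70.0 and 74.0% with inducer, higher at the later times in both treatments. It was higher with inducer in each pair, by 8.57, 10.01 and 1.56 percentage points, though the groups overlapped (mean difference 6.71; exact permutation test, two-sided, 3 against 3, p = 0.4; adjusted over 4, 0.533). The permutation test does not use the pairs. The size of that share also depends on whether reads shared by SSA1 and SSA2 were kept.

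**Figure D1:**
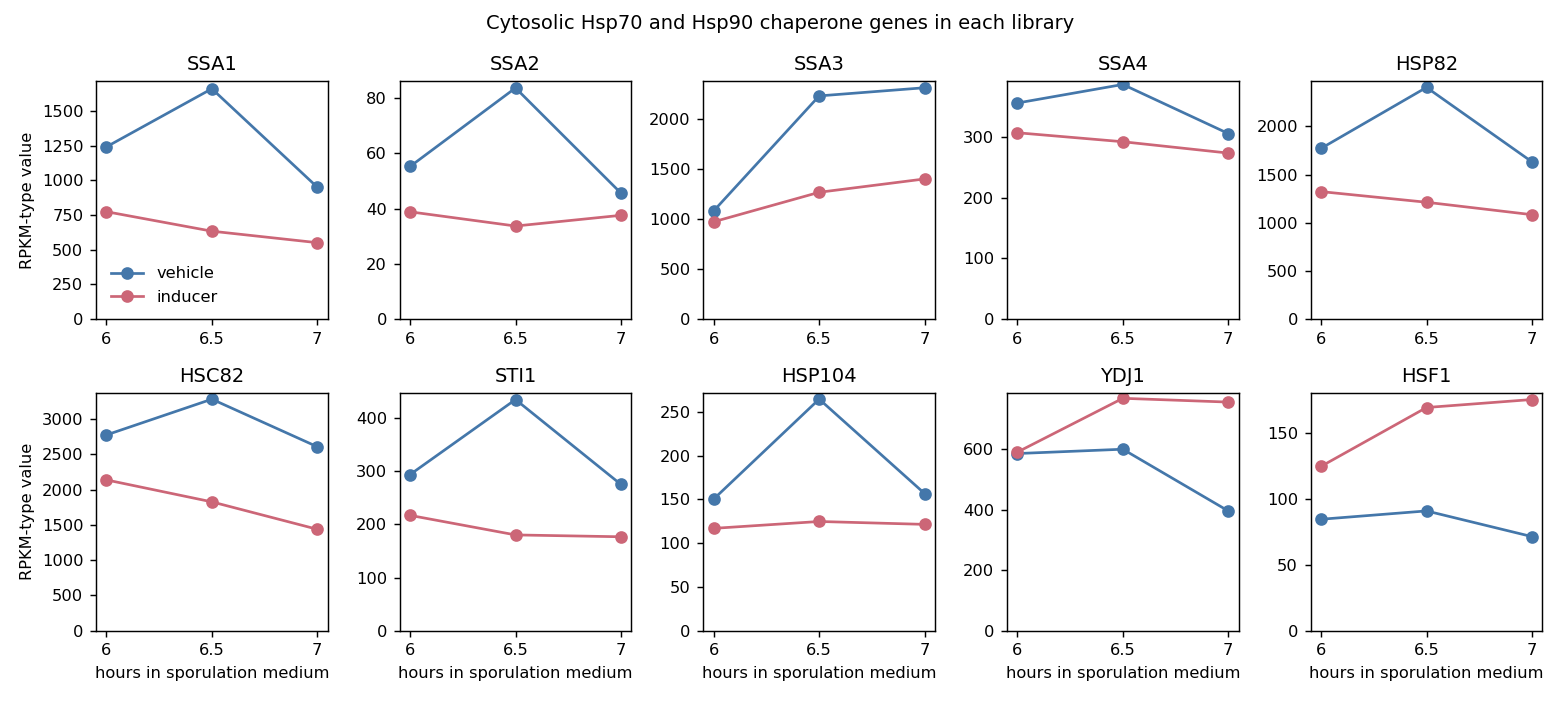
RPKM-type value of each of the 10 chaperone genes against hours in sporulation medium, 1 point per library, with vehicle in blue and inducer in red and each vertical axis starting at 0. HSF1 lies higher with inducer at each time, and YDJ1 is nearly level at 6 h and higher after. SSA1, SSA2, SSA3, SSA4, HSP82, HSC82, STI1 and HSP104 lie lower at each time. Most vehicle curves have their peak at 6.5 h.

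Both Hsp90 genes were lower with the inducer, to nearly the same degree. HSC82, known as the more constitutive copy, was the member with the highest mean in either treatment, at 2774, 3280 and 2607 in vehicle and 2137, 1826 and 1438 with inducer. HSP82, the more heat-inducible copy, measured 1772, 2404 and 1632 in vehicle and 1323, 1213 and 1084 with inducer. Neither gene's groups overlapped. HSC82 fell by 0.69 ± 0.16 (limma adjusted p = 0.0280) and HSP82 fell by 0.67 ± 0.16 (limma adjusted p = 0.0315), and vehicle was 1.62-fold and 1.59-fold higher. Their sum was 4545, 5684 and 4239 in vehicle against 3460, 3038 and 2521 with inducer. HSP82 made up 39.0, 42.3 and 38.5% of the sum in vehicle and 38.2, 39.9 and 43.0% with inducer, with overlapping groups (exact permutation test, two-sided, 3 against 3, p = 0.8; adjusted over 4, 0.8).

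The co-chaperones divided. STI1, the adaptor that binds Hsp70 and Hsp90 at once, was 293, 434 and 275 in vehicle and 217, 180 and 177 with inducer, with no overlap. STI1 fell by 0.78 ± 0.18 (limma adjusted p = 0.0258), and vehicle was 1.72-fold higher. YDJ1, the farnesylated J-domain partner of Ssa proteins, was 585, 599 and 395 in vehicle and 589, 767 and 754 with inducer. At 6 h the treatments were nearly level for YDJ1, the groups overlapped, and the change of 0.43 ± 0.19 did not pass (limma adjusted p = 0.153). It was 0.64 without the 6 h pair (limma adjusted p = 0.0511), 0.47 without the 6.5 h pair (0.433) and 0.18 without the 7 h pair (0.481). The difference between treatments for YDJ1 grew with time by 0.92 ± 0.34 per hour, which did not pass (limma adjusted p = 0.338). Set against the Hsp70 sum in the same library, the log2 ratio of YDJ1 to SSA1 to SSA4 was -2.23, -2.86 and -3.19 in vehicle and -1.83, -1.54 and -1.59 with inducer, and these groups did not overlap.

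HSP104, the hexameric disaggregase, was 151, 264 and 157 in vehicle and 117, 125 and 122 with inducer. The inducer libraries for HSP104 were all below the vehicle libraries and within 1.07-fold of each other, while vehicle spanned 1.76-fold. HSP104 fell by 0.60 ± 0.17 (limma adjusted p = 0.0481). The call was lost in 8 of 15 alternatives, among them HAC1 left out of the library totals (limma adjusted p = 0.0569).

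HSF1, the regulator of most of these genes, was the member called higher. It measured 84.4, 90.7 and 71.3 in vehicle and 124, 169 and 175 with inducer. Every inducer library was above every vehicle library, and HSF1 rose by 0.91 ± 0.16 (limma adjusted p = 0.0116), a 1.88-fold increase. The difference was 0.55, 0.89 and 1.28 at the 3 times, and its growth of 0.73 ± 0.31 per hour did not pass (limma adjusted p = 0.398). The mRNA says nothing of the activity of the Hsf1 protein, which is known to be controlled largely by its binding to Hsp70.

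Ordered by level per length, the vehicle means ± SD over 3 times were 2887 ± 351 for HSC82, 1936 ± 411 for HSP82, 1877 ± 688 for SSA3, 1285 ± 357 for SSA1, 526 ± 114 for YDJ1, 349 ± 40.8 for SSA4, 334 ± 87.1 for STI1, 191 ± 64.1 for HSP104, 82.1 ± 9.91 for HSF1 and 61.5 ± 19.8 for SSA2. Neighbours whose ranges over the libraries overlapped were HSP82 with SSA3, SSA3 with SSA1, SSA4 with STI1, and HSF1 with SSA2. With inducer the order was HSC82 (1800 ± 350), SSA3 (1215 ± 219), HSP82 (1206 ± 120), YDJ1 (703 ± 99.0), SSA1 (653 ± 113), SSA4 (291 ± 16.7), STI1 (191 ± 22.3), HSF1 (156 ± 27.6), HSP104 (121 ± 3.94) and SSA2 (36.7 ± 2.68). YDJ1 thus stood above SSA1, and HSF1 above HSP104, in the inducer means, though the ranges of each of these pairs overlapped. Ranks that involve SSA1 or SSA2 carry the limit on shared reads given above.

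In all, 5 of the 10 members were called lower (SSA1, HSP82, HSC82, STI1 and HSP104) and 1 higher (HSF1), where 8.35% of all tested ORFs were called lower and 10.0% higher. The groups did not overlap for 6 members that were lower and 1 that was higher, against 14.1% and 17.3% of all tested ORFs. The median change of the members was -0.63, beside -0.08 over all tested ORFs, and by time it was -0.37, -0.92 and -0.48 at 6, 6.5 and 7 h. Without the 6 h pair 6 members were called lower, SSA3 being added to the 5, and 1 higher, with 723 ORFs higher and 535 lower in all. With the 6.5 h pair dropped, 0 members were called lower and 0 higher, beside 196 ORFs higher and 22 lower in all. Dropping the 7 h pair also left 0 members called in either direction, beside 76 ORFs higher and 9 lower. In the full fit 604 ORFs were called higher and 503 lower. The loss of calls was thus general, and not particular to the members. Signs did not change: without the 6.5 h pair SSA1 changed by -0.73, HSP82 by -0.51, HSC82 by -0.62, STI1 by -0.54, HSP104 by -0.36 and HSF1 by 0.92, and without the 7 h pair the values were -1.03, -0.70, -0.61, -0.85, -0.72 and 0.72.

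Over time, with both treatments in the fit, 0 members were called rising or falling by limma, with 1 at an unadjusted p under 0.05 (SSA3), where 0.249% of all ORFs were called rising and 0.415% falling. For the difference in slope between treatments, 0 members and 0% of all ORFs were called in either direction; 2 members, YDJ1 and HSF1, had an unadjusted p under 0.05. A linear slope does not describe what the vehicle libraries did. From 6 to 6.5 h in vehicle all 10 members went up, with a median of 0.43, where 36.2% of all ORFs went up and their median was -0.10. From 6.5 to 7 h 9 of the 10 went down, with a median of -0.58, the exception being SSA3, and the median of all ORFs was -0.10. HSP104 went from 151 to 264 and back to 157, and STI1 from 293 to 434 and back to 275. With inducer the members' medians for the same steps were -0.10 and -0.03.

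The rise at 6.5 h extended to other genes under Hsf1. All 18 genes of a list of Hsf1 targets, 7 of which are members, were at their highest vehicle value in the 6.5 h library, where 29.0% of all ORFs had theirs. So were 9 of 12 further Hsp70 co-chaperones, 5 of 8 small heat shock and sorting proteins and 5 of 8 mitochondrial chaperones. Only some of these genes are on the Hsf1 list. The same held for 4 of 11 Hsp90 co-chaperones, 1 of 14 chaperonin and prefoldin genes and 0 of 7 chaperones at the ribosome. The median step of the 18 was 0.43 upward and then -0.53, and with inducer it was 0.05 and -0.05. Because that library is the shallowest and has no replicate, the time and the library cannot be told apart. An alternative added after the data were seen left out that 1 vehicle library and, because a factor for time would then ignore its partner too, took hours as a linear term. With hours as a linear term and all 6 libraries, 4 members were called lower, HSP104 having lost its call (limma adjusted p = 0.0699), and 1 higher. With the library also left out, SSA1 was called lower at -0.75 (limma adjusted p = 0.0358) and HSF1 higher at 0.98 (adjusted p = 0.0339). The values for the others were -0.50 for HSP82 (limma adjusted p = 0.0934), -0.60 for HSC82 (0.0855), -0.58 for STI1 (0.0529) and -0.34 for HSP104 (0.132). Over all ORFs the calls then numbered 353 higher and 125 lower, against 700 and 624 in the same fit with the library in.

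**Figure D2:**
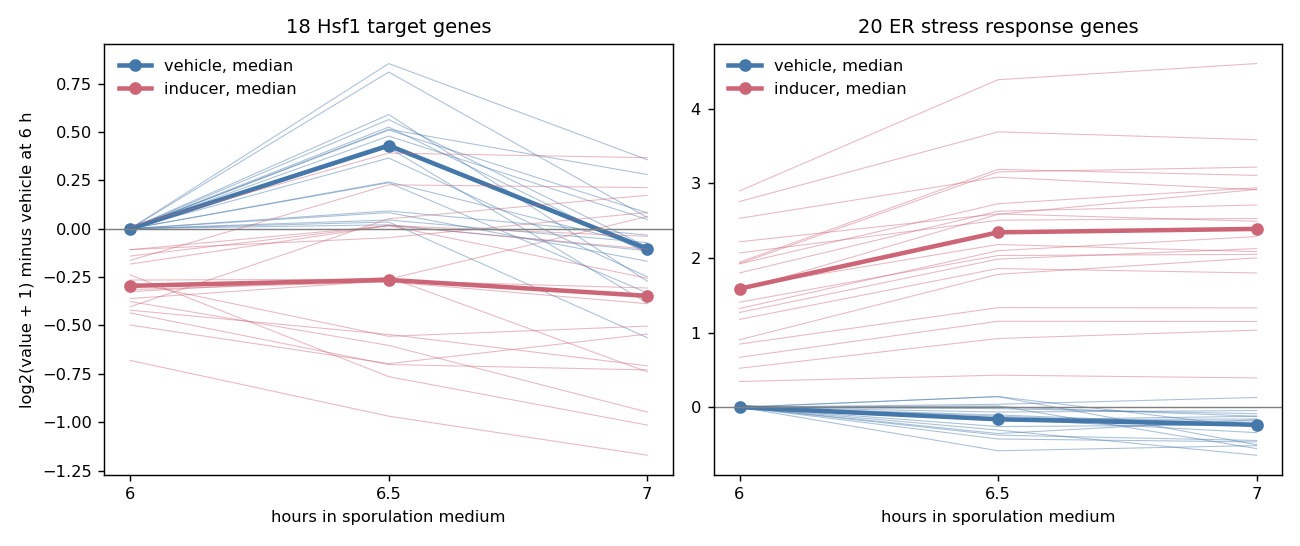
Course of 18 Hsf1 target genes (left) and 20 ER stress response genes (right) as log2(value + 1) minus the same gene's vehicle value at 6 h, against hours in sporulation medium; thin lines are genes, thick lines with points are medians, vehicle in blue and inducer in red. The vehicle median of the Hsf1 targets steps up by 0.43 at 6.5 h and comes back, while all 20 ER genes lie higher with inducer at each time.

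Across the 18 Hsf1 targets 7 were called lower and 0 higher, with a median change of -0.41. Over all tested ORFs 8.35% were called lower and 10.0% higher. Of the 7, 5 were members already counted above. Apart from the members, 2 of 11 were called lower, with a median of -0.31: SIS1, the J-domain protein essential for growth, which fell by 0.61 ± 0.15 (limma adjusted p = 0.0317), and CUR1, a sorting factor for misfolded proteins, which fell by 0.64 ± 0.16 (adjusted p = 0.0338). SIS1 was 627, 874 and 648 in vehicle and 500.3, 527 and 375 with inducer, without overlap. Without the 6.5 h pair, and without the 7 h pair, 0 of the 18 were called lower. With hours as a linear term 7 were, and 1 when vehicle at 6.5 h was also left out.

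Promoter windows of 7 members are shown because they hold heat shock elements, the known binding sites of Hsf1. The 300 bases before each start codon were searched on both strands, in the same R64 genome, for 3 alternating units (GAANNTTCNNGAA or its complement), 2 units (GAANNTTC or TTCNNGAA, which also lie within a match of 3), the UPR element CAGNGTG and the stress response element AGGGG. A match of 3 units was present in 4 of 10 members, SSA1, SSA2, STI1 and HSP104, and in 0.864% of 6020 promoters. A match of 2 units was present in 7 of 10, and in 22.4% of promoters. The members without one were SSA3, YDJ1 and HSF1, whose changes were -0.56, 0.43 and 0.91. KAR2, which rose by 4.01, had matches of both kinds. A link between matches and the direction of change was not tested. CAGNGTG was in 0 of 10 members, 5.65% of promoters and 2 of the 20 ER genes, and AGGGG was in 4 of 10 members and 22.2% of promoters. Capitals mark the matches of 3 units in SSA1, SSA2, STI1 (where there are 2) and HSP104, and a match of 2 units in SSA4, HSP82 and HSC82. In KAR2, shown for contrast, capitals mark 2 overlapping matches of 3 units and a CAGNGTG match. These are matches of letters and not measured binding.
SSA1, chrI:141660-141712, minus strand: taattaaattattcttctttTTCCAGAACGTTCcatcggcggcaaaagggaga
SSA2, chrXII:97686-97738, minus strand: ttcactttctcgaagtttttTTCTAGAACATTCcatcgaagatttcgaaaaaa
STI1, chrXV:380791-380869, plus strand: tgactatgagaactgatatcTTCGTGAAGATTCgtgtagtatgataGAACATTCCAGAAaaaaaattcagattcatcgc
HSP104, chrXII:88323-88358, plus strand: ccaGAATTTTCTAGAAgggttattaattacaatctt
SSA4, chrV:364316-364363, plus strand: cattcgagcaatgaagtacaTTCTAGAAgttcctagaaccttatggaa
HSP82, chrXVI:98833-98880, minus strand: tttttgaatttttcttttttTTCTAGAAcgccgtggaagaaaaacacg
HSC82, chrXIII:632118-632165, plus strand: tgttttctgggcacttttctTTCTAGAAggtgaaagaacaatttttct
KAR2, chrX:381102-381193, plus strand: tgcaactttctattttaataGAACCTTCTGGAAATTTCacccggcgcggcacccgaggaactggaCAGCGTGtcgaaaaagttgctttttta

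The ER stress response moved the other way and much further. Of 20 ER genes 19 were called higher and 0 lower, with a median change of 2.21, and all 20 had every inducer library above every vehicle library. KAR2, the lumenal relative of the Ssa proteins (72.5% identical to SSA1 in coding sequence, with 0 shared windows of 50 bases), was 964, 1063 and 798 in vehicle and 7190, 20196 and 23467 with inducer, a rise of 4.01 ± 0.33 (limma adjusted p = 0.00082). Its nucleotide exchange factor SIL1 rose by 3.45 ± 0.23 and its J-domain partner JEM1 by 2.55 ± 0.14 (limma adjusted p = 0.00038 and 0.000255). ERO1, the oxidase of disulfide formation, rose by 2.96 ± 0.17 and PDI1, the main disulfide isomerase, by 1.17 ± 0.21 (limma adjusted p = 0.000255 and 0.0127). MPD1 rose by 2.40 ± 0.15 and DER1 by 2.30 ± 0.24 (limma adjusted p = 0.000339 and 0.00192). UBC7, a ubiquitin-conjugating enzyme of ER-associated degradation, was the gene not called, at 0.43 ± 0.14 (limma adjusted p = 0.0715). The ER count was 19 without the 6 h pair, 17 without the 6.5 h pair, and 10 without the 7 h pair; with hours as a linear term it was 20, and 19 when vehicle at 6.5 h was also left out.

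The balance of the ER and cytosolic Hsp70 transcripts within a library does not depend on scaling between libraries. It does depend on whether reads shared by SSA1 and SSA2 were kept, which is not known. KAR2 was 0.35, 0.24 and 0.22 times the sum of SSA1 to SSA4 in vehicle at 6, 6.5 and 7 h, and 3.43, 9.06 and 10.4 times that sum with inducer. On the log2 scale the ratio was -1.51, -2.04 and -2.18 in vehicle and 1.78, 3.18 and 3.37 with inducer, so the sign changed between treatments in every pair. The mean difference was 4.69, or 25.7-fold, with p = 0.1 in the two-sided exact permutation test (adjusted over 4 ratios and shares, 0.4), the smallest p that 3 against 3 libraries allow. Most of the shift came from KAR2, which rose by 4.01, rather than from the Hsp70 sum. In vehicle the ratio was lowest at 7 h, and with inducer it was highest at 7 h.

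**Figure D3:**
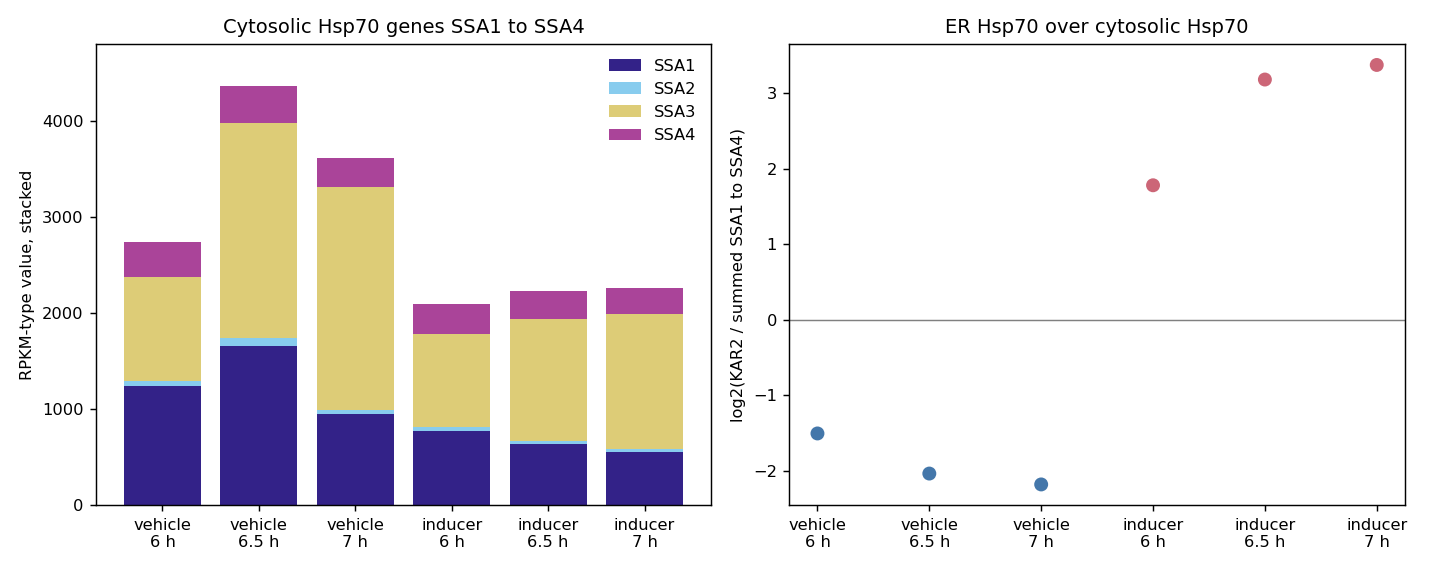
Left, RPKM-type values of SSA1, SSA2, SSA3 and SSA4 stacked for each library; right, log2 of KAR2 over their sum, 1 point per library, vehicle in blue and inducer in red. The stacks reach 2737 to 4364 in vehicle and 2094 to 2264 with inducer, and the ratio lies between -2.18 and -1.51 in vehicle and between 1.78 and 3.37 with inducer.

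Of 12 further Hsp70 co-chaperones and exchange factors 1 rose and 1 fell, shares near the 10.0% and 8.35% of all ORFs, with a median of -0.13. The gene that fell was SIS1, described above, and the one that rose was SWA2, the J-domain protein that uncoats clathrin vesicles and is also known for a role in ER inheritance, from 24.3, 26.0 and 18.4 in vehicle to 90.01, 180 and 158 with inducer (2.54 ± 0.22; limma adjusted p = 0.000953). The Hsp110 exchange factors SSE1 and SSE2 had changes of 0.55 ± 0.21 and -0.35 ± 0.14 (limma adjusted p = 0.107 and 0.114). Of 11 Hsp90 co-chaperones 0 were called by limma, with 2 at an unadjusted p under 0.05, and the median was -0.06. CDC37, which brings kinases to Hsp90, changed by 0.48 ± 0.16 (limma adjusted p = 0.0839) and the cyclophilin CPR6 by -0.38 ± 0.15 (0.114).

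In the lists that follow, counts of 2 of 14 and 1 of 8 are near the shares of all ORFs, 10.0% higher and 8.35% lower. Of 14 genes for the TRiC chaperonin, which folds actin and tubulin, and its partner prefoldin, 2 rose and 0 fell, with a median of 0.07. They were the prefoldin subunit YKE2 (1.19 ± 0.16; limma adjusted p = 0.00501) and the chaperonin subunit CCT6 (0.79 ± 0.23; adjusted p = 0.0497), while CCT8 had -0.35 ± 0.13 (adjusted p = 0.0999), so the 2 chaperonin subunits had changes of opposite sign. The list's count of 2 fell to 1 with a pseudocount of 0.1, with HAC1 left out of the library totals and without the 6.5 h pair, and to 0 without the 7 h pair. YKE2 was 271, 287 and 226 in vehicle and 477, 695 and 632 with inducer. Of 7 chaperones at the ribosome 0 were called by limma, with 1 at an unadjusted p under 0.05, and SSB2, an Hsp70 that shares 43.2% of its windows with SSB1, changed by -0.50 ± 0.16 (adjusted p = 0.0725). Among 8 small heat shock and sorting proteins 1 fell, CUR1, and its relative BTN2 changed by -0.44 ± 0.13 (limma adjusted p = 0.0614). Among 8 mitochondrial chaperones 0 were called by limma, with 1 at an unadjusted p under 0.05, the chaperonin HSP60 at -0.51 ± 0.16 (adjusted p = 0.0668).

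**Figure D4:**
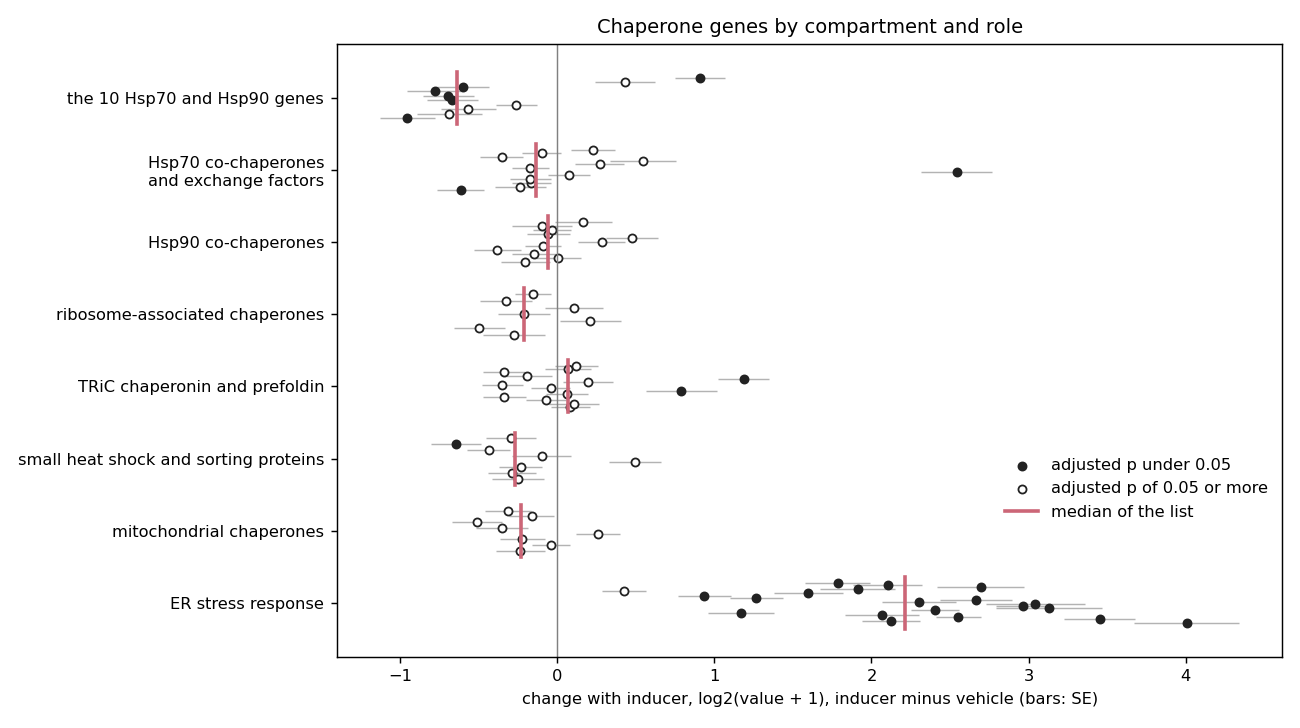
Change with inducer, log2(value + 1) inducer minus vehicle, for each gene of 8 lists; points are genes with bars of 1 SE, filled where the limma adjusted p is under 0.05, and the red lines are list medians. The 10 Hsp70 and Hsp90 genes have a median of -0.63 and the ER genes a median of 2.21, with the other lists' medians between -0.27 and 0.07.

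The genes next to the members moved in both directions. Of 19 distinct neighbours 7 had a positive and 12 a negative change, and limma called 5 higher and 3 lower, where 10.0% and 8.35% of all ORFs were called; those named here were chosen after their values were seen. MTQ1, a methyltransferase gene that diverges from YDJ1 across a gap of 660 bases, was 60.8, 79.4 and 77.8 in vehicle and 84.7, 169 and 199 with inducer (0.97 ± 0.18; adjusted p = 0.0130). ERP2, a p24 cargo adaptor gene downstream of SSA1, rose by 2.43 ± 0.21 (limma adjusted p = 0.000893), and YMR187C, convergent with HSC82 across 216 bases, rose by 2.16 ± 0.33 (adjusted p = 0.00703). CIN5, a transcription factor gene convergent with STI1, fell by 0.80 ± 0.12 (limma adjusted p = 0.00767). YAL004W, a dubious ORF that lies opposite SSA1, had values of 0 to 1.05. The sources used here do not give the strand setting or how reads that fit both ORFs were handled.

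The genes most like SSA1 over the 6 libraries, by Pearson correlation of log2 values among 5676 tested genes outside the members with a mean of at least 20, were WHI4 (r = 0.997), STB1 (0.996), MGR2 (0.994), ZDS2 (0.994) and CBT1 (0.993). Those most like SSA4 were MRPL3 (0.999), YFR018C (0.996), ENT2 (0.996), STP22 (0.993) and BAT1 (0.991). With 6 libraries that share 2 treatments and 3 times, the highest correlations among so many genes are a description only.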

How the data were processed

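Directional libraries from poly(A) RNA of 6 SK1 samples were read as 50-base single ends, per the labels' protocols. The submitters' processing notes name Bowtie2, TopHat and SAMtools. Not given in the sources used here are versions, genome build, annotation, strand setting and the handling of reads with several matches. The authors deposited RPKM-type values, a unit inferred from the values, and counts were not used here. Low values were whole multiples of a step that depends on coding length less 60 bases: 72.6 to 79.6% of values under 40 reads were whole within 0.02 of a read. The reads so recovered describe depth only, and no count test was run.

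Values were taken as log2(value + 1), which understates changes of low genes. ORFs with a mean of at least 5 were kept (6025; 654 left out). limma-trend (limma 3.58.1, R 4.3.3) compared treatments with time as a factor, tested time as a linear term beside treatment, and tested their product, with Benjamini-Hochberg adjustment at 0.05; the design written for counts or RPKM-type values was used in its RPKM branch. Libraries were paired by the hour their labels give; deviations from the treatment means correlated at 0.32, 0.00 and 0.11 within pairs and at -0.23 to 0.22 across hours. Correlations between libraries were 0.925 to 0.987. Ratios and shares had two-sided exact permutation tests.

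The members, the gene lists and the tests were chosen with earlier results of these data known. The genes named are the members, KAR2, HAC1, PDI1, ERO1 and DER1, up to 4 per list by smallest p, and the 5 most like SSA1 and SSA4; neighbours and any others were chosen after their values were seen. Names and sequences came from the RefSeq S288C assembly R64, which holds 5994 of the ORF identifiers. The limma fit was tested on simulated data with independent noise, a constant treatment effect and no effect of time. That test does not cover differences that change with time. Alternatives were other pseudocounts, filters and scalings, each pair left out, copies summed, no time term, hours as a linear term, limma without a trend, 7 h against 6 h, and, added later, vehicle at 6.5 h left out with hours as a linear term.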

Additional observations from a re-analysis of the deposited data

How the results depend on the processing

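Each member kept the sign of its change between inducer and vehicle under every alternative run, although calls were lost. Without a filter on low values 0 members were called higher and 0 lower, 0 ER genes were called higher, and 3 ORFs in all were higher and 0 lower; the cause was not tested. Without the replicate block (no time term) 2 members and 145 ORFs were lower, and limma without a trend gave 3 and 260. Hours as a linear term gave 4 members lower, and 700 ORFs higher and 624 lower; when vehicle at 6.5 h was also left out, the counts were 1, 353 and 125. With each pair left out in turn, which leaves 1 residual degree of freedom, 0 to 1 members were higher and 0 to 6 lower, 10 to 19 ER genes were higher, and 76 to 723 ORFs were higher and 9 to 535 lower.

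Over time the ORFs called rising numbered 42 with median centring, 40 (and 16 falling) with upper quartile scaling, 9 (and 2) with HAC1 left out of the totals, 6 (and 1) for 7 h against 6 h, 1 (and 0) without a filter, and 0 to 6 (0 to 1 falling) with a pair left out. No member was called, and slopes per hour turned in sign: YDJ1 to 0.048 with median centring and 0.035 with upper quartile scaling, and SSA4, when summed with SSA3, to 0.63. With a pair left out the slopes ran from -1.005 to 0.13 for SSA1, -0.71 to 0.39 for SSA2, -0.43 to 0.047 for SSA4, -0.72 to 0.31 for HSP82, -0.68 to 0.015 for HSC82, -0.69 to 0.30 for STI1, -0.79 to 0.90 for HSP104, -0.62 to 0.41 for YDJ1 and -0.29 to 0.54 for HSF1. The difference in slope turned to -0.075 and -0.067 for SSA4 with the same 2 scalings, to 0.0054 for HSP104 with HAC1 left out, and with copies summed to -0.086 for SSA2 and -0.48 for SSA4; without a pair it had no residual degrees of freedom and was not run. The log2 ratio of KAR2 to the Hsp70 sum differed by 4.25 to 5.39 with a pair left out, and the HSP82 share by -1.56 to 1.87 percentage points. Depth limits SSA2 in particular, with 234 to 466 reads a library.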
